A study of Saccharomyces cerevisiae with 3 samples.

Results

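The 10 genes described here encode amino acid permeases of the yeast plasma membrane: *AGP1*, *GNP1*, *BAP2*, *BAP3*, *TAT1*, *DIP5*, *GAP1*, *TAT2*, *HIP1* and *LYP1*. They were chosen by name, and each was represented by 1 probe set of its own, so that 10 of the 10928 probe sets on the array and 10 of the 5449 *S. cerevisiae* genes with a named probe set were followed. Expression was profiled with Affymetrix Yeast Genome 2.0 arrays in haploid yeast harvested after 3 days of growth in synthetic complete medium, with 1 array for each of wild-type, *met15Δ* and *rtg3Δ met15Δ*. All strains derived from the BY4741/BY4742 background and share *his3Δ1*, *leu2Δ0* and *ura3Δ0*. The *met15Δ* cells lack the sulfhydrylase that fixes sulfide on the way to methionine, and *rtg3Δ met15Δ* cells also lack Rtg3, a transcription factor of the retrograde pathway, through which mitochondria signal to the nucleus. The study profiled these genotypes to ask which changes of methionine-restricted cells need *RTG3*.

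Permeases of this family are proton-coupled carriers that bring amino acids into the cell against a gradient. Their genes answer to what the medium holds: the Ssy1-Ptr3-Ssy5 (SPS) sensor at the plasma membrane detects external amino acids and releases the transcription factors Stp1 and Stp2, which induce *AGP1*, *GNP1*, *BAP2*, *BAP3*, *TAT1* and *DIP5*. *GAP1*, the general amino acid permease, is instead governed by GATA factors such as Gln3, which act when good nitrogen sources run short. The proteins are then controlled a second time, by ubiquitination through Rsp5 and removal to the vacuole. None of these later steps is seen by an array, which measures transcripts only.

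With no replicate, values carry no error, and the genotypes could not be compared by any test. Genes are described by their signals, which the authors made with RMA on the linear scale, and a gene is called higher or lower where its signals differed at least 2-fold, the limit of the study's methods. A log2 ratio of 1 or -1 is that limit. Where 3 signals follow a gene without labels, they stand in the order wild-type, *met15Δ*, *rtg3Δ met15Δ*. In a whole culture, fewer cells with a transcript and less of it per cell cannot be told apart.

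The deleted genes had low signals in the strains that lack them, except *HIS3*, which gave 18655, 9662 and 4271 although all strains share *his3Δ1*. The signal of *MET15*, annotated as *MET17*, was 2874 in wild-type against 85.0 and 89.9 in *met15Δ* and *rtg3Δ met15Δ* cells, and *RTG3* was at 2703, 2215 and 28.7. *LEU2* and *URA3* were at the same low signal on all 3 arrays, 40.6 and 30.8. The background of an array can be read from 1746 probe sets whose gene name matched no *S. cerevisiae* gene. They are taken here as probe sets for another yeast species. Their top signals, 273 in wild-type, 273 in *met15Δ* and 289 in *rtg3Δ met15Δ*, are used as the background limit. Genes of mating type moved between the same cultures: 5 of 6 a-specific genes were higher in *met15Δ* cells than in the wild type, with summed signals of 1854, 12811 and 32413 in the same order, and 2 of 4 alpha-specific genes were lower, with sums of 3759, 1917 and 5827. Between the mutants 4 of the 6 and 2 of the 4 were higher in *rtg3Δ met15Δ* cells and none was lower. In wild-type cells *MFA2* (114), *STE2* (151), *AGA2* (148) and *BAR1* (71.1) lay under the background limit. So did *MF(ALPHA)1* in *met15Δ* cells (101) and *MF(ALPHA)2* on all 3 arrays (250, 129 and 129). The other signals of these genes lay above it. The part of mating type in the results below was not tested, and a mating type that differs between cultures cannot be told apart from the deletions.

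*DIP5* and *BAP2* had far less transcript in *rtg3Δ met15Δ* than in *met15Δ* cells, by 20.6-fold and 10.3-fold. *TAT1*, next to *BAP2* on its chromosome, was higher in *met15Δ* cells than in both other genotypes. *BAP3*, the duplicate of *BAP2*, was higher in *rtg3Δ met15Δ* than in *met15Δ* cells, and *HIP1* and *GNP1* were lower in each mutant than in the wild type. *AGP1* was higher in both mutants, at signals that hardly differed between them.

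**Figure D1:**
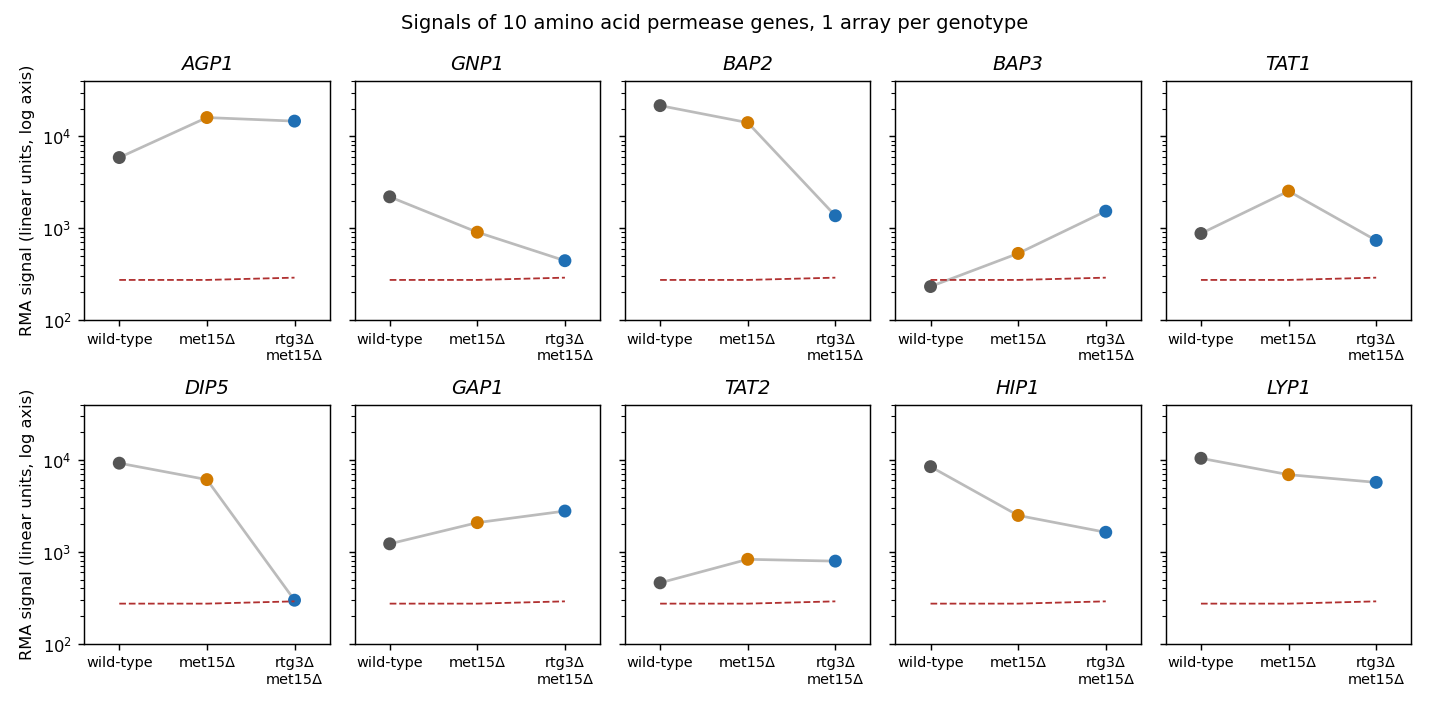
RMA signal (log axis) of each of the 10 permease genes on the 3 arrays, 1 point per genotype; grey lines only join the points of a gene, and the dashed line is the background limit of each array, the top signal among probe sets for the other yeast species. *DIP5* drops from 6123 in *met15Δ* to 298 in *rtg3Δ met15Δ*, close to that line, and the wild-type signal of *BAP3* (232) is the only one under it.

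*DIP5*, the permease for aspartate and glutamate, gave signals of 9242 (wild-type), 6123 (*met15Δ*) and 298 (*rtg3Δ met15Δ*). The double mutant thus stood apart from both genotypes with *RTG3*. The ratio of *met15Δ* to wild-type was 0.662, within 2-fold, and that of *rtg3Δ met15Δ* to wild-type was 0.0322, a 31.0-fold difference. Among the 5449 genes only 6 had a lower log2 ratio between the mutants than *DIP5* (-4.36), one of them the deleted *RTG3* itself. The signal left in the double mutant lay just above the background limit of its array, 289, so that the fold rests on a value at the edge of the background.

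*BAP2*, a permease for leucine, isoleucine and valine, followed the same course. Its signals were 21596 (wild-type), 14103 (*met15Δ*) and 1366 (*rtg3Δ met15Δ*), again with the double mutant alone far below the others. Its log2 ratio was -0.61 for *met15Δ* over wild-type and -3.37 between the mutants, where *BAP2* ranked 18 from the lowest of all genes. Against wild-type the double mutant was 15.8-fold lower.

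Neither *DIP5* nor *BAP2* counts as *RTG3*-dependent by the rule of the study's methods. That rule asks first for a 2-fold change in *met15Δ* cells and then for a change at least 2-fold smaller in *rtg3Δ met15Δ* cells, and both genes failed the first step. Of the 10 permeases 1 met it, *TAT1*, which transports valine, leucine, isoleucine and tyrosine. Its signals were 875 (wild-type), 2534 (*met15Δ*) and 736 (*rtg3Δ met15Δ*), so that *met15Δ* alone was high. *TAT1* was 2.89-fold higher in *met15Δ* cells than in the wild type and 3.44-fold lower in the double mutant than in *met15Δ*, and the ratio of the double mutant to wild-type was 0.840. Over all *S. cerevisiae* probe sets 5.24% met the rule, and 2.88% over all probe sets of the array. No array of *rtg3Δ* cells with an intact *MET15* was analysed here, so what *RTG3* deletion does by itself and a lost *met15Δ* change cannot be told apart. *TAT1* is overlapped by a noncoding antisense gene, TBRT, and whether its probe set separates both strands is not given in the sources used here.

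The genes nearest in pattern were sought for the permeases that passed 4-fold in either of these comparisons, which were *DIP5* and *BAP2*. Likeness was the Euclidean distance between the pairs of log2 ratios, over 3 arrays and 5103 genes with at least 1 signal above the background. For *DIP5* the 3 nearest were *GPP1*, a glycerol phosphatase gene, at a distance of 0.41, *DLD3*, a lactate dehydrogenase gene, at 0.77, and *ADH2*, an alcohol dehydrogenase gene, at 0.93. For *BAP2* they were *DLD3* at 0.35, the malic enzyme gene *MAE1* at 0.47 and *GPP1* at 0.60. *MAE1* gave signals of 24719 (wild-type), 12967 (*met15Δ*) and 1601 (*rtg3Δ met15Δ*). With 3 arrays such likeness is a description of these cultures only.

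*BAP3* differed from its duplicate *BAP2* in direction. Its signals were 232 (wild-type), 531 (*met15Δ*) and 1531 (*rtg3Δ met15Δ*), the double mutant being highest and wild-type lowest. *BAP3* was 2.88-fold higher in the double mutant than in *met15Δ* cells. Its wild-type signal was under the background limit, though above all but 1 of the 1746 probe sets of the other species. Taken against that limit, *BAP3* was at least 1.94-fold higher in *met15Δ* and at least 5.60-fold higher in *rtg3Δ met15Δ* cells than in the wild type, and the call in *met15Δ*, made on the measured ratio of 2.29, is lost on that bound. Between the mutants the ratios of *BAP2* and *BAP3* lay 29.8-fold apart.

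*AGP1* and *GNP1*, which also arose by duplication, differed as well. *AGP1*, a permease of broad range, gave signals of 5876 (wild-type), 16016 (*met15Δ*) and 14642 (*rtg3Δ met15Δ*). Both mutants were high, 2.73-fold and 2.49-fold above wild-type, and their own log2 ratio was -0.13. *GNP1*, the high-affinity glutamine permease, gave signals of 2195, 904 and 443. It was 2.43-fold lower in *met15Δ* cells than in the wild type and 2.04-fold lower again in the double mutant, just past the limit. The ratios of *AGP1* and *GNP1* in *met15Δ* over wild-type lay 6.62-fold apart.

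**Figure D2:**
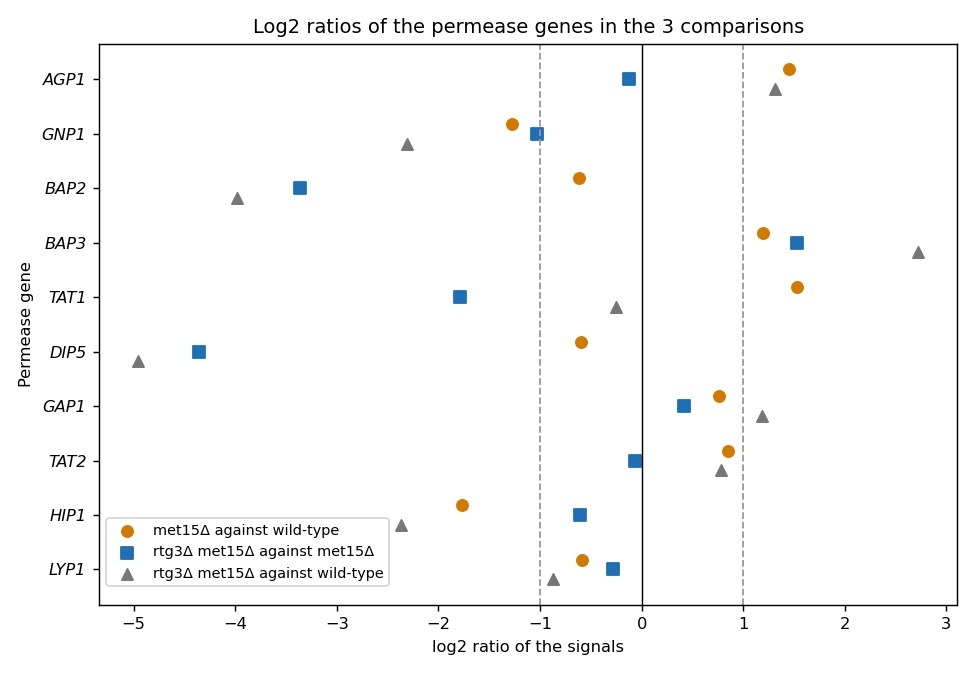
Log2 ratio of the signals (horizontal axis) of each permease gene (vertical axis) in the 3 comparisons, 1 marker each; dashed lines mark 2-fold. *DIP5* (-4.36) and *BAP2* (-3.37) lie farthest to the left between the mutants, and *BAP3* (1.53) is the only gene past 2-fold on the right there. The comparisons share arrays, so the markers of a gene are not separate evidence.

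The 4 permeases outside the SPS group were within 2-fold between the mutants with the deposited signals. *HIP1*, the high-affinity histidine permease, gave signals of 8470.3 (wild-type), 2492 (*met15Δ*) and 1634 (*rtg3Δ met15Δ*). Wild-type was thus high and both mutants low, by 3.40-fold and 5.18-fold. *LYP1*, the lysine permease, had 10443, 6930.3 and 5711, with log2 ratios of -0.59 in *met15Δ* and -0.87 in the double mutant over wild-type. *LYS2*, a gene of lysine synthesis deleted in some strains of this background, was present on all 3 arrays with signals of 6684, 10058 and 2331, and was 4.31-fold lower in the double mutant than in *met15Δ* cells.

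*TAT2*, the permease for tryptophan and tyrosine, gave signals of 460.4, 829.9 and 793. It was at log2 ratios of 0.85 and 0.78 over wild-type in *met15Δ* and *rtg3Δ met15Δ* cells, under 2-fold in both. *GAP1* had 1224, 2082 and 2783 in wild-type, *met15Δ* and *rtg3Δ met15Δ* cells. Its ratio to wild-type was 1.70 in *met15Δ* and 2.27 in the double mutant, so that it passed 2-fold in the double mutant alone.

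Counted together, 3 of the 10 permeases were higher in *met15Δ* cells than in the wild type (*TAT1*, *AGP1* and *BAP3*) and 2 were lower (*HIP1* and *GNP1*). That is 5 of 10 called, where 27.9% of the *S. cerevisiae* probe sets and 14.9% of all probe sets were. Of the *S. cerevisiae* probe sets 16.8% were higher and 11.1% lower, or 8.97% and 5.91% of all. The median log2 ratio of the permeases was 0.09 against 0.07 over all *S. cerevisiae* genes, and its SD among the permeases was 1.20 against 1.01 among all genes. The list thus had no common direction here.

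Between *rtg3Δ met15Δ* and *met15Δ* cells 4 of the 10 were lower (*DIP5*, *BAP2*, *TAT1* and *GNP1*) and 1 was higher (*BAP3*). All 5 belong to the 6 targets of the SPS sensor, the sixth being *AGP1*, a grouping made with the values known. It depends on the scaling of the arrays. As given below, *HIP1* and *LYP1*, outside this group, passed the limit under another scaling, and *BAP3* or *GNP1* fell short under some. Of the *S. cerevisiae* probe sets 21.0% were called, 10.6% lower and 10.4% higher, and of all probe sets 11.5%, 5.49% lower and 6.03% higher. The median log2 ratio was -0.44 over the permeases and -0.02 over all genes, with SDs of 1.77 and 0.89. Against wild-type, 3 permeases were higher and 4 lower in the double mutant, where 38.3% of the *S. cerevisiae* probe sets were called, 21.1% higher and 17.2% lower, and 20.2% of all probe sets, 11.3% higher and 8.89% lower. This comparison shares its arrays with the others.

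**Figure D3:**
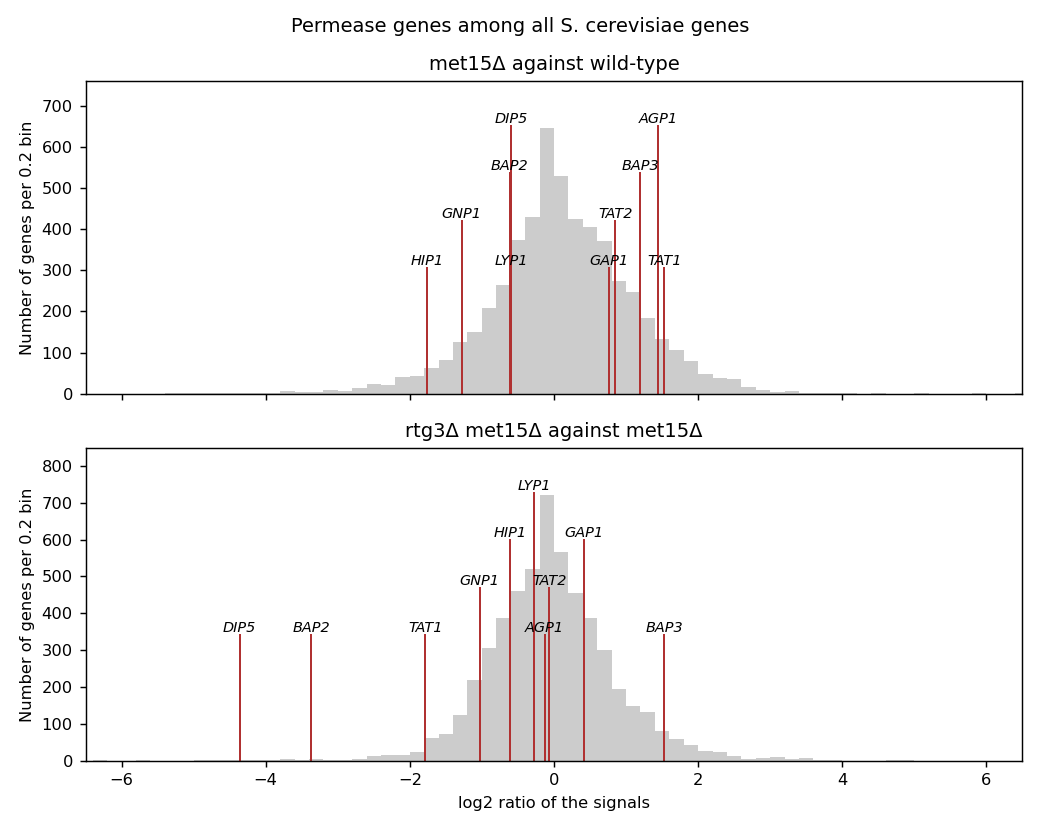
Histograms of the log2 ratio of the signals over all 5449 *S. cerevisiae* genes (grey, number of genes per bin of 0.2) in *met15Δ* against wild-type (top) and *rtg3Δ met15Δ* against *met15Δ* (bottom), with a red line at each permease gene; line height carries no value. The permeases lie on both sides of 0 in the top panel, and *DIP5* (-4.36) and *BAP2* (-3.37) lie in the far left tail of the bottom panel.

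The scaling of the arrays bears on the permeases near the limit. Probe sets for bacterial control transcripts gave mean log2 ratios of -0.54 (*met15Δ* over wild-type) and 0.77 (*rtg3Δ met15Δ* over *met15Δ*), and scaling to them shifts every gene by those amounts the other way. The sources used here do not say whether equal amounts were added. With that scaling 5 permeases were higher and 1 lower in *met15Δ* cells (in place of 3 and 2), as *GAP1* (1.31) and *TAT2* (1.39) passed the limit and *GNP1* (-0.74) left it. Between the mutants none was higher and 6 were lower (in place of 1 and 4), since *HIP1* (-1.38) and *LYP1* (-1.05) joined and *BAP3* (0.75) dropped out, and *GAP1* (-0.35) changed sign. Over all probe sets the split was 1957 higher and 284 lower in place of 980 and 646, and 171 and 2431 in place of 659 and 600.

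When each array was divided by its median signal, a shift of 0.30 and 0.19 on the log2 scale, *BAP3* (0.89) was no longer called in *met15Δ* cells, nor was it with 100 added to each signal (0.93). These array medians were 144 (wild-type), 177 (*met15Δ*) and 203 (*rtg3Δ met15Δ*), each under the background limit of its array. The medians over *S. cerevisiae* probe sets were 1504, 1552 and 1457. With the array medians the split over all probe sets was 611 higher and 1025 lower, and 493 and 915 between the mutants. For *rtg3Δ met15Δ* over wild-type the split turned, to 654 higher and 1722 lower with the array medians and to 924 and 1281 with the bacterial controls, in place of 1238 and 971. For *rtg3Δ met15Δ* over wild-type, *GAP1* (0.69) and *AGP1* (0.82) fell short of the limit with the array medians and *LYP1* (-1.37) passed it, and with the bacterial controls *GAP1* (0.95) fell short and *LYP1* (-1.10) passed. *GNP1* fell short of the limit between the mutants with arrays divided by their median over *S. cerevisiae* probe sets (-0.94) or with 100 added to each signal (-0.89). *DIP5*, *BAP2* and *TAT1* were called between the mutants under each of these settings, with log2 ratios from -5.14 to -3.97, -4.14 to -3.28 and -2.56 to -1.66.

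**Figure D4:**
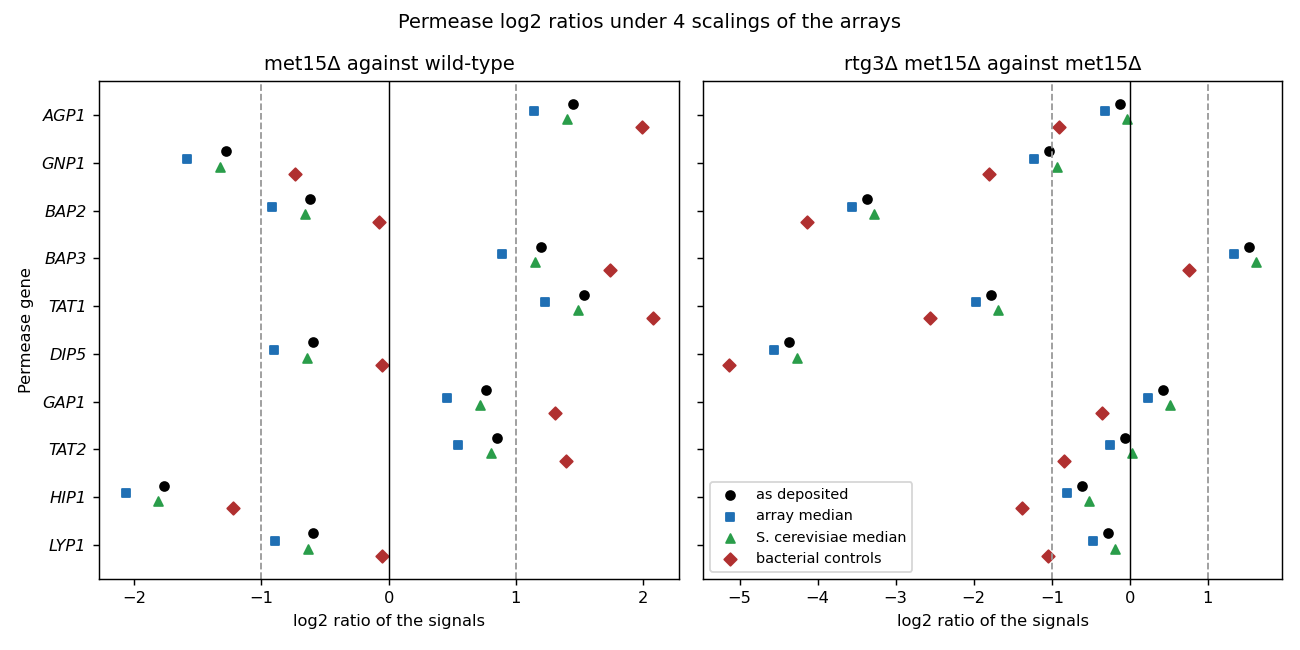
Log2 ratio of the signals (horizontal axis) of each permease gene (vertical axis) with the deposited signals and with 3 other scalings of the arrays, for *met15Δ* against wild-type (left) and *rtg3Δ met15Δ* against *met15Δ* (right); dashed lines mark 2-fold. *DIP5* lies at -4.27 or lower on the right under all of them, while *GNP1* at -1.03 and -0.94 lies on either side of the limit.

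Of 9 other amino acid permease genes 3 were higher and 1 lower in *met15Δ* cells than in the wild type (median log2 ratio 0.00), and 1 was higher and 1 lower between the mutants (median 0.05). Over all *S. cerevisiae* probe sets 16.8% were higher and 11.1% lower in the first comparison, and 10.4% higher and 10.6% lower in the second. *MMP1*, the S-methylmethionine permease, gave signals of 1102 (wild-type), 6097 (*met15Δ*) and 4268 (*rtg3Δ met15Δ*) and was 5.53-fold higher in *met15Δ*. *AGP3*, known to be induced when sulfur is limiting, had 214, 1141 and 1565 and was at least 4.18-fold higher, as its wild-type signal lay under the background limit. The proline permease gene *PUT4* had 1411, 3434 and 1579, high in *met15Δ* alone as *TAT1* was, and also met the *RTG3*-dependent rule, but not with the array medians, where its log2 ratio in *met15Δ* over wild-type was 0.98.

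Among the methionine permeases, *MUP3* of low affinity was 2.22-fold lower in *met15Δ* cells than in the wild type (10883 in wild-type, 4911 in *met15Δ* and 6347 in *rtg3Δ met15Δ*). *MUP1* of high affinity had 2262, 2350.3 and 2435. Between the mutants only *PUT4* was lower, 2.17-fold, and only *ALP1* was called higher, but its signals of 84.0, 80.7 and 161 all lay under the background limit, so no fold is given. *CAN1*, *SAM3* and *AGP2* passed 2-fold in none of the comparisons of the deposited signals. For *rtg3Δ met15Δ* over wild-type, *CAN1* (-1.11) was called lower with the array medians. *MUP3* was called lower there with the array medians (-1.27) and the bacterial controls (-1.01). *AGP2* had the identical value, 4825.61, on all 3 arrays, as *LEU2* and *URA3* had theirs. *SAM3* was tied between wild-type and *met15Δ* cells (3680.28), and other genes of the lists were tied between arrays too. Such exact ties between separate arrays are not read here as equal expression, and their origin was not tested.

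Of 12 genes of the SPS sensor pathway itself none was called in *met15Δ* cells (median log2 ratio -0.49) and 1 was lower between the mutants (median -0.24). This was *ASI1*, which encodes a nuclear membrane protein that keeps unprocessed Stp1 and Stp2 from promoters, with signals of 1818 (wild-type), 3267 (*met15Δ*) and 1411 (*rtg3Δ met15Δ*). Over all *S. cerevisiae* probe sets 27.9% were called in *met15Δ* over wild-type and 21.0% between the mutants. Against wild-type 3 of the 12 were lower in the double mutant: the sensor gene *SSY1* (1680.3, 913 and 671), the coactivator gene *DAL81* (1426, 903 and 692) and the casein kinase gene *YCK2* (2765, 1564 and 1264). Of the *S. cerevisiae* probe sets 17.2% were lower in that comparison. *STP1* (8147, 4709 and 5509) and *STP2* (4378, 3284 and 2292) stayed within 2-fold in every comparison of the deposited signals. With the array medians *STP1* was called lower over wild-type in *met15Δ* (-1.09) and *rtg3Δ met15Δ* cells (-1.06). *STP2* was lower in the double mutant over wild-type with the array medians (-1.43) and the bacterial controls (-1.17). With the bacterial controls *STP2* was also lower between the mutants (-1.29).

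Of 5 genes for GATA factors and their control, *GLN3* was lower in the double mutant than in *met15Δ* cells, 2.10-fold, with signals of 3270 (wild-type), 1740.3 (*met15Δ*) and 831 (*rtg3Δ met15Δ*). No other was called between the mutants, and none in *met15Δ* over wild-type (medians -0.29 and -0.57). Over all *S. cerevisiae* probe sets 21.0% and 27.9% were called in these comparisons. The repressor gene *GZF3* (1259, 846 and 464) was 2.71-fold lower in the double mutant than in wild-type cells. *GAT1* had 5483, 3659 and 5261.

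Of 13 genes that act on the permease proteins in export or turnover, 1 was lower in *met15Δ* cells than in the wild type (median 0.32) and 1 between the mutants (median -0.15). Over all *S. cerevisiae* probe sets 11.1% and 10.6% were lower. *LST7*, required for delivery of Gap1 to the cell surface, gave signals of 6931 (wild-type), 1683 (*met15Δ*) and 1963 (*rtg3Δ met15Δ*), 4.12-fold lower in *met15Δ*. The adaptor gene *ALY1* (2535, 3923 and 1701) was 2.31-fold lower in the double mutant than in *met15Δ*. Against wild-type, the double mutant had more *RSP5* (3238, 6426 and 7273) and *LST4* (2175, 4147 and 4584) and less *NPR1*, a kinase gene (5965, 4124 and 2732), *LDB19*, another adaptor gene (3601, 2566 and 1761), and *LST7*. Of the *S. cerevisiae* probe sets 21.1% were higher and 17.2% lower in that comparison. *SHR3*, whose product lets these permeases leave the endoplasmic reticulum, had 1966, 2848 and 2454.

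These lists also depended on the scaling. With the bacterial controls, between *rtg3Δ met15Δ* and *met15Δ* cells 6 of the 12 SPS pathway genes, 3 of the 5 GATA factor genes and 5 of the 13 export and turnover genes were lower, and none was higher. Of all 10928 probe sets, 5498 of them for *S. cerevisiae* genes, 2431 were lower and 171 higher there. These counts thus include a shift shared by the whole array. The same scaling gave 3 SPS pathway genes, 2 GATA factor genes and 5 export and turnover genes as higher in *met15Δ* cells than in the wild type, with *LST7* lower. Over all probe sets it gave 1957 higher and 284 lower. With the array medians 4 SPS pathway genes were instead lower in *met15Δ* cells, where 1025 of all probe sets were lower and 611 higher. Of the 9 other permeases *AGP3* and *MMP1* were higher in *met15Δ* cells, and *PUT4* lower between the mutants, under each of the 4 scalings, whereas *MUP3* (-0.61) was not called lower in *met15Δ* cells with the bacterial controls. With the bacterial controls *MMP1* was also lower between the mutants (-1.29) and met the *RTG3*-dependent rule. So did *GRR1* and *ASI1* of the SPS pathway, *URE2* of the GATA list and the adaptor genes *ALY1* and *ALY2*. *ALP1* was not called between the mutants with the array medians (0.81) or the bacterial controls (0.23). *GLN3* (-0.98) was not called there with the *S. cerevisiae* medians. For *rtg3Δ met15Δ* over wild-type, *RSP5* and *LST4* fell short with the array medians (0.67 and 0.58) and the bacterial controls (0.93 and 0.84), and *LDB19* (-0.99) and *DAL81* fell just short with the *S. cerevisiae* medians.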

How the data were processed

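The authors corrected the scanned arrays for background and applied RMA (RMAExpress 1.0.4). The deposited intensity values are 1 linear-scale signal for each probe set. How RMAExpress was set to normalize is not given in the sources used here. There were 3 arrays, 1 per genotype, grouped by the submitters' labels, and no test could be made. The number of arrays limits the precision. Signals were used as deposited, with Python 3.11.15 and pandas 2.3.3. Gene names came from the platform annotation, matched by gene number to a gene table of assembly R64, used for names and neighbours only, since the build behind the annotation is not stated. For genes with several probe sets the mean log2 signal was taken. Ratios were called at 2-fold over all probe sets, and this step was tested on simulated data. Where the lower of the compared signals was under the top signal of the probe sets for another species, the fold was taken against that top signal and printed as “at least”. Named genes were the 10 permeases, called members of 5 lists, deleted and marker genes, and the 3 nearest genes to any permease past 4-fold; list genes with no call were named besides. Members and lists were chosen with earlier results of these data known. The alternatives were other scalings, thresholds of 1.5-fold and 3-fold, an added 100 and a filter on low signals. Promoter motifs were planned and not analysed here.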

Additional observations from a re-analysis of the deposited data

How the results depend on the processing

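No paired analysis was possible because each genotype has 1 array and no test was made; for the same reason no array could be left out. The scalings, the added 100 and the filter on low signals kept the number of permeases called within 1.5 times in each comparison, and the permeases whose call changed are named above. Over all probe sets they did so except for scaling to the bacterial controls, with 2602 called between the mutants in place of 1259. The threshold moved more. At 1.5-fold all 10 permeases were called in *met15Δ* over wild-type, 6 between the mutants and 9 in *rtg3Δ met15Δ* over wild-type. In the first comparison *LYP1* (1.51-fold lower), *DIP5* (1.51-fold) and *BAP2* (1.53-fold) were only just past that threshold. Of all 10928 probe sets, 2907, 2623 and 3506 were called in the same order (1626, 1259 and 2209 at 2-fold). At 3-fold 1 permease (*HIP1*) was called in *met15Δ* cells and 3 between the mutants (*DIP5*, *BAP2* and *TAT1*), 0 had an *RTG3*-dependent change, and 667, 415 and 1036 probe sets were called. The median log2 ratio of the permeases in *met15Δ* over wild-type was -0.22 with the array medians and 0.63 with the bacterial controls, and between the mutants -0.64 and -1.22. Signal over background limits *BAP3* in wild-type and *DIP5* in *rtg3Δ met15Δ* cells.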

Other observations

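Genes for transporters that move amino acids across the vacuolar membrane were called in both directions. Of 14 such genes 3 were higher and 3 lower in *met15Δ* cells than in the wild type (median log2 ratio -0.23), and 5 were lower and none higher in *rtg3Δ met15Δ* than in *met15Δ* cells (median -0.19). Over all *S. cerevisiae* probe sets 16.8% were higher and 11.1% lower in the first comparison, and 10.6% lower and 10.4% higher in the second. With the bacterial controls these counts were 5 higher and 2 lower, and 7 lower between the mutants. Over all 10928 probe sets that scaling gave 1957 higher and 284 lower, and 171 higher and 2431 lower between the mutants. The percentages above belong to the deposited signals. *AVT2* gave signals of 7022 (wild-type), 1489 (*met15Δ*) and 479 (*rtg3Δ met15Δ*) and was lower at each step, 4.72-fold and 3.11-fold. *VBA1*, a permease gene for basic amino acids, had 14843, 3329 and 1451, again lower at each step. *AVT7*, with 14018, 9733 and 4287, was within 2-fold in *met15Δ* over wild-type. In the double mutant it was 2.27-fold lower than in *met15Δ* and 3.27-fold lower than in wild-type cells. *VBA3* (536, 2155 and 69.8) and *RTC2* (4707, 9965 and 4835) were high in *met15Δ* alone and met the *RTG3*-dependent rule. For *RTC2* this was lost with the array medians, where its log2 ratio in *met15Δ* over wild-type was 0.78, and with the *S. cerevisiae* medians, where that between the mutants was -0.95. The probe set of *VBA3* is of a type shared between similar sequences, and its last signal lay under the background limit, so that it was at least 7.45-fold lower in the double mutant than in *met15Δ* cells. *AVT4* (5357, 2254 and 2446) was 2.38-fold lower in *met15Δ* cells (not called with the bacterial controls, -0.71), and *YPQ2* (229.8, 570.3 and 467) at least 2.09-fold higher. Against wild-type 4 of the 14 were higher in the double mutant and 5 lower, beside 21.1% and 17.2% of the *S. cerevisiae* probe sets. The higher ones were *AVT1* (719, 981 and 1732), *AVT3* (2551, 4946 and 7500), *AVT6* (1241, 1962 and 2885) and *YPQ2*. *YPQ2* was at least 1.71-fold higher, so its call is lost on that bound. *AVT1*, *AVT6* and *YPQ2* fell short with the array medians, and *AVT6* and *YPQ2* with the bacterial controls. Under that last scaling *YPQ2* was lower between the mutants (-1.06) and met the *RTG3*-dependent rule on its measured ratios.

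The genes beside the permeases on the chromosomes were looked up after the values had been seen. At 10 positions next to the 5 permeases called in *met15Δ* over wild-type, 3 neighbours were called in the same direction and 1 in the opposite one. Between the mutants these were 4 and 2 of 10 positions, and *BAP2* and *TAT1*, which neighbour each other, account for 2 of the 4. Over all *S. cerevisiae* probe sets 27.9% were called in the first comparison and 21.0% in the second. With so few positions the counts are a description only. On the other side of *BAP2* lies *TIP1*, a cell wall protein gene, whose log2 ratio between the mutants was 3.00 against -3.37 for *BAP2*.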
